A study of Mus musculus with 4 samples.

Results

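Messenger RNA of the nuclear pore and of the nuclear transport machinery was examined in mouse embryonic stem (ES) cells with lowered FBL, fibrillarin, the nucleolar enzyme that methylates ribosomal RNA. The genes were taken by symbol: those named Nup, Kpna, Kpnb, Ipo, Xpo or Tnpo with a number, and Ran, Rangap1, Ranbp1, Ranbp2, Rcc1, Tpr, Ndc1, Pom121, Sec13 and Seh1l. Of 17016 genes that could be named on the array, 49 met this rule, and 85 probes read them. The cells were a Tc-inducible FBL knock-down ES line kept on gelatin with leukaemia inhibitory factor (LIF). The 2 control samples had 1000 ng/mL Tc, the agent on which FBL expression depends in this line, for 2 days, and the 2 knock-down samples had no Tc for 2 days; both groups carry the same inducible construct. The labels do not say how many clones the line comprises, what promoter drives the construct, or whether the samples of a group were separate cultures. The p-values thus rest on the variation among these 4 samples alone, pooled over genes, and it may be technical.

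The nuclear pore complex is a ringed channel through the nuclear envelope, built of nucleoporins, whose phenylalanine-glycine (FG) repeats form the barrier that large cargo crosses only when bound to a transport receptor. Importins carry proteins in, exportins carry proteins and RNAs out, and the small GTPase Ran sets the direction, because Rcc1 loads it with GTP at chromatin and Rangap1 triggers hydrolysis in the cytoplasm. New ribosomal subunits leave the nucleus through the same pores, with the exportin Xpo1 as a main carrier. In ES cells the importin Kpna2 is known as a carrier of OCT4.

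Values are the deposited log2 signals, on which 0 is the 75th percentile of the array. A change is knock-down minus control on this scale, and a gene rose or fell only where limma gave an adjusted p under 0.05 over all 19338 genes tested. For each gene limma drew much of the error from the spread of all genes tested (8.56 prior degrees of freedom). An SE, interval or p-value therefore does not measure the replicate spread of that gene alone. Fbl read 8.63 and 8.12 with Tc and 5.98 and 5.94 without, a fall of 5.32-fold (limma adjusted p = 3.22e-04, n = 2 per group). Between 59.9% and 64.5% of spots were well above background per array, no spot was saturated, and with 4 arrays it is their number that sets the precision. All 8 ES cell markers were well above background on all 4 arrays, and none of them passed the test. Nanog read 4.29 on both control arrays and 3.55 and 3.38 without Tc (change −0.82, adjusted p = 0.0586), and Zfp42 had a change of −0.61 (adjusted p = 0.182), both with groups that did not overlap. The list did not move one way. Tdgf1 (−0.44), Esrrb (−0.34) and Pou5f1 (−0.06) were below 0, and Sox2 (0.29), Dppa5a (0.24) and Utf1 (0.08) were above 0. The groups also lay apart for Tdgf1 and Esrrb, below the controls, and for Sox2, above them. They overlapped for Pou5f1, Dppa5a and Utf1, and over all genes 51.2% had groups that lay apart. Of 6 fibroblast markers, Col1a1 and Col1a2 were well above background on all 4 arrays and Col3a1, Dcn and Postn on none. The summed level of that list was −2.35 to −1.77 with Tc and −1.77 to −1.58 without. Of 5 primitive endoderm markers Sox7 fell (−2.15, adjusted p = 3.30e-04), and Sox17 had a change of 0.80 (adjusted p = 0.110). Gata4 had a change of −1.855 (adjusted p = 0.142). It read −3.08 and −5.60 with Tc and −5.49 and −6.90 without, so its groups overlapped and control 1 alone stood high. Gata4 and Sox17 were each well above background on only 3 of the 4 arrays. Gata6 (0.04) and Dab2 (−0.03) lay near 0. The summed level of that list was −1.8 to −1.4 with Tc and −2.3 to −2.2 without. That sum held the high Gata4 value of control 1, and Sox7, which read −3.22 and −3.21 with Tc and −5.39 and −5.35 without. Of 4 trophectoderm markers Elf5 fell (−1.63, adjusted p = 0.0184), from −5.10 and −4.86 with Tc to −6.01 and −7.21 without. Elf5 was dim, and it was well above background on only 3 of the 4 arrays. Cdx2 (0.83, adjusted p = 0.0662) and Tfap2c (0.82, adjusted p = 0.0692) had changes above 0, and Eomes had one of −0.36 (adjusted p = 0.462). The summed level of that list was 3.57 to 3.81 with Tc and 4.38 to 4.62 without. Nearly all of that sum was Tfap2c, which read 3.79 and 3.55 with Tc and 4.61 and 4.37 without. No marker of the neural ectoderm or primitive streak lists passed. The part of these markers in the values below was not tested. Knock-down 2 was hybridised on slide 2 and the other arrays on slide 1. The controls were the less alike pair: over genes, the difference between both arrays of a group had an SD of 0.51 for the controls and 0.32 for the knock-down.

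No nuclear pore or transport gene passed the test: 0 of 49 rose and 0 fell in limma, where 6.79% of all genes passed, 4.05% upwards and 2.74% downwards. All 49 were well above background on all 4 arrays, so none was lost to the filter on dim probes. At an unadjusted p under 0.05 there were 4, namely Tpr above the controls and Xpo4, Nup43 and Xpo5 below them, or 8.16% against a background of 20.1%. The changes ran from −0.60 to 0.69, and none reached 1 on the log2 scale. The smallest change that passed among all genes was 0.86. The 95% interval of the change lay within −1 and 1 for 41 of the 49 genes and for 13715 of all 19338 genes tested. For the 49 genes it reached at most 1.19 on the high side and −1.13 on the low side. A change of the size seen for Fbl lies outside the interval of each.

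**Figure D1:**
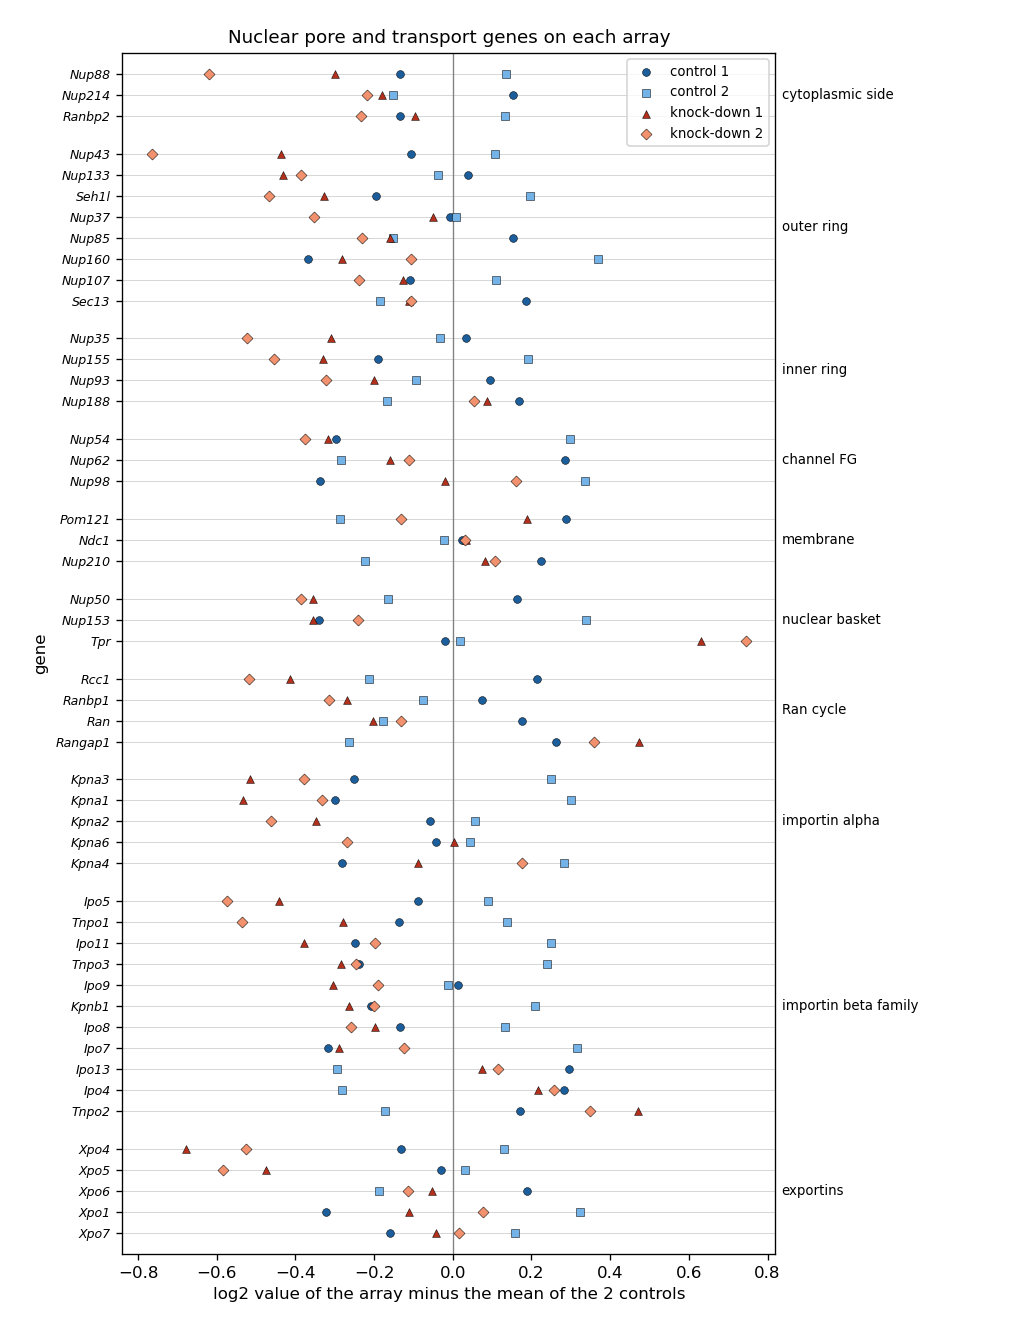
Level of each of the 49 genes on each array, as the log2 value minus the mean of the 2 controls, with genes grouped by role on the vertical axis and 1 symbol per array. Most knock-down symbols sit left of 0, Tpr sits to the right at both knock-down arrays, and the 2 controls lie more than 0.5 apart for several genes.

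Small differences below 0 predominated. Of the 49 genes 38 were lower and 11 higher, a share of 77.6% lower where 55.8% of all genes were lower. The median change was −0.21, against −0.06 over all genes tested. That gap depended on the controls: it was −0.27 against 0.004 without control 1 and −0.20 against −0.12 without control 2. Relative to the mean of the controls, the median over the 49 genes was −0.04 in control 1, 0.04 in control 2, −0.20 in knock-down 1 and −0.23 in knock-down 2. Both knock-down values lay below both control values for 25 genes (51.0%, with 30.3% of all genes) and above them for 4 (8.16%, with 20.9% of all genes), and the groups overlapped for the other 20. In either direction the groups lay apart for 59.2% of these genes and 51.2% of all genes. These shares describe the list, and no test was made of them. In bulk RNA, fewer cells expressing a gene and less of its RNA per cell cannot be told apart.

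**Figure D2:**
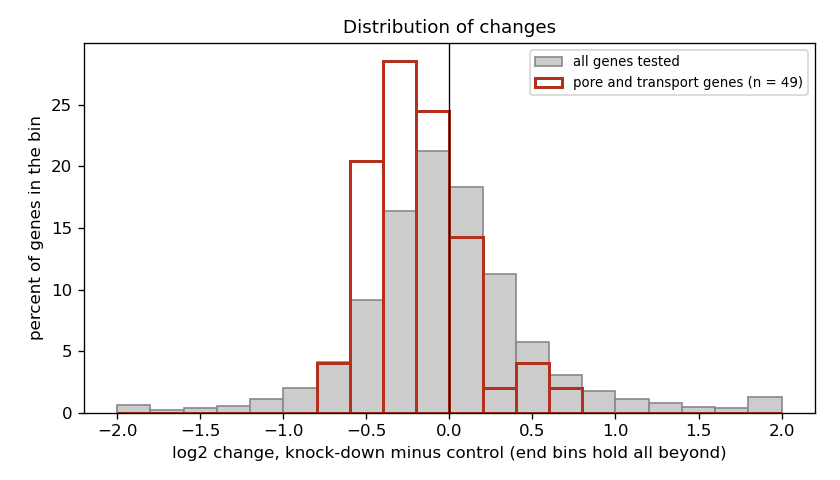
Percent of genes in bins of 0.2 log2 units of the change, for all genes tested (grey) and the 49 pore and transport genes (red outline), with the end bins holding all genes beyond them. The bins from −0.4 to −0.2 and from −0.6 to −0.4 hold 28.6% and 20.4% of the 49 genes, against 16.4% and 9.15% of all genes.

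The start-site windows of 3 genes are shown because Tpr and Rangap1 had the 2 highest changes and Xpo5 the lowest among genes with a window; the choice was made after the values were seen. RefSeq windows (GRCm38.p6) run from 250 bases before to 50 after a transcript start, 300 bases in all, and 40 of the 49 genes had 1 or more, 47 in total. Capitals mark matches, on either strand, to any of 5 motifs, none of which contains another. They are the E-box, spelled CACGTG, the CCAAT box, spelled as its name, the ETS core, spelled CCGGAAG, the GC box, spelled GGGCGG, and the TATA box, spelled TATAAA. The windows lie at chr1:150392588-150392887 on the plus strand (Tpr), chr15:81729870-81730169 on the minus strand (Rangap1) and chr17:46202561-46202860 on the plus strand (Xpo5).
Tpr: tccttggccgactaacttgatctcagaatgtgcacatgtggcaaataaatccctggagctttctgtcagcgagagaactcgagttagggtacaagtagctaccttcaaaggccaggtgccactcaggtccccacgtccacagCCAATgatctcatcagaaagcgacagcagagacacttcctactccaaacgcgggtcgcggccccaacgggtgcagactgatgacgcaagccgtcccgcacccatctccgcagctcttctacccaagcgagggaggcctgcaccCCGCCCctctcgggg
Rangap1: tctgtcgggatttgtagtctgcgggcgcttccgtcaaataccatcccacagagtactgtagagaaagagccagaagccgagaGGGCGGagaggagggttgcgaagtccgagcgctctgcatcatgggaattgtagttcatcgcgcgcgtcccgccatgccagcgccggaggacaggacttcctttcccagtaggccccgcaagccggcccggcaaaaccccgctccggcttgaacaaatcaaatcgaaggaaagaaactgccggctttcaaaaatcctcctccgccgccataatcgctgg
Xpo5: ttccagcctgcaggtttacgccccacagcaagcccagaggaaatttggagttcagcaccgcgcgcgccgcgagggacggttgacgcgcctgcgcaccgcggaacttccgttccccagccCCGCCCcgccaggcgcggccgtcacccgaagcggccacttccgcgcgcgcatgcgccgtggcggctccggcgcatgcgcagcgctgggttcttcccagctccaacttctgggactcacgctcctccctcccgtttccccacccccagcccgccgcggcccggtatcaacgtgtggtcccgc
The Tpr window held a CCAAT box before the start, at position −108, and a GC box after it, at position 35. Rangap1 and Xpo5 each held 1 GC box before the start, at −168 and −131, and none of the 3 windows held an E-box, an ETS core or a TATA box. Over the 47 windows the GC box was in 31 (66.0%, against 35.7% of all 32851 RefSeq windows), the CCAAT box in 23 (48.9% against 37.4%), the E-box in 8 (17.0% against 7.15%), the ETS core in 8 (17.0% against 8.86%) and the TATA box in 5 (10.6% against 13.6%). The median window of these genes had 64.0% G and C and 28 CG dinucleotides, against 52.7% and 7 over all windows. A match describes letters only, and genes that were lower and genes that were higher are both among these windows.

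The outer ring, or Y complex, coats the pore on both faces and is needed to build new pores. All 8 of its measured genes were lower, with a median of −0.20, where 55.8% of all genes were lower. For 6 of the 8, both knock-down values lay below both controls, as for 30.3% of all genes. Nup43, a beta-propeller subunit of that ring, read 3.36 and 3.57 with Tc and 3.03 and 2.70 without, a change of −0.60 ± 0.24 (SE, n = 2 per group, limma adjusted p = 0.187). The groups lay apart, and the 2 knock-down arrays differed by 0.33. Nup133, which anchors the Y complex in the ring, read 5.89 and 5.81 against 5.42 and 5.46, a change of −0.41 (adjusted p = 0.357). The knock-down arrays here agreed closely and lay below both controls. Seh1l, a subunit shared with a regulator of mTORC1, had 2 probes, with changes of −0.40 and −0.38. Nup107, the namesake of the complex, read 0.39 and 0.61 against 0.38 and 0.26, a change of −0.18 (adjusted p = 0.734), so that its higher knock-down value and its lower control almost met. Nup85, Nup37 and Nup160 had changes of −0.20, −0.20 and −0.19. Sec13, which also coats vesicles leaving the endoplasmic reticulum, had the smallest change of the ring at −0.11. Nup160 was 0.17 without control 2 and Sec13 was 0.076 without control 1, so neither kept its sign against both controls.

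Of 4 inner ring genes 3 were lower. Nup35 read 4.57 and 4.50 with Tc and 4.23 and 4.01 without (change −0.42, limma adjusted p = 0.356). Nup155 (−0.39) and Nup93 (−0.26) followed with groups that did not overlap, while Nup188 was 0.07 with overlapping groups. Nup93, which holds the ring to the channel nucleoporins, read 4.23 and 4.04 against 3.93 and 3.81 (adjusted p = 0.601). The 3 membrane nucleoporins, which fix the pore in the envelope, had changes from 0.03 to 0.10. Nup210, a glycoprotein known for its part in muscle and neural differentiation, read 3.66 and 3.21 with Tc and 3.52 and 3.54 without. Its knock-down values lay between its controls (change 0.10, limma adjusted p = 0.883). Ndc1 was the steadiest of the 49 genes between arrays of a group, at 2.84 and 2.79 in the controls and 2.85 in both knock-down samples, a change of 0.03, with groups apart by under 0.01 and a 95% interval from −0.47 to 0.53. Pom121 had a change of 0.03 at its brightest probe and of 0.39 and 0.34 at the others.

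The channel and mobile FG nucleoporins had changes of both signs. The 3 genes of the cytoplasmic side were lower, as were 55.8% of all genes. Nup62, the core of the channel, read 5.12 and 4.55 with Tc and 4.68 and 4.72 without, so that the knock-down values again lay between the controls (change −0.13, limma adjusted p = 0.835). Nup98, a mobile FG nucleoporin that also acts at genes inside the nucleus, read −0.40 and 0.27 against −0.09 and 0.09 (change 0.07, adjusted p = 0.926), with overlapping groups. Nup54, a partner of Nup62, had a change of −0.35. On the cytoplasmic side Nup88 read 5.17 and 5.44 against 5.01 and 4.69 (change −0.46, adjusted p = 0.329), and its partner Nup214 had a change of −0.20. Ranbp2, the large filament protein with SUMO ligase activity, had a change of −0.16. No role group of the pore held a gene that passed. Nup42, Nup58, Nup205 and Nup210l were not analysed here.

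The nuclear basket held the highest and some of the lower values. Tpr, the filament protein that forms the basket, read 1.86 and 1.90 with Tc and 2.51 and 2.63 without. Both knock-down arrays stood above both controls, which differed from each other by 0.04. The change was 0.69 ± 0.23, or 1.61-fold, with a 95% interval from 0.19 to 1.19 (limma adjusted p = 0.109). The other Tpr probe read 1.31 and 1.63 with Tc and 1.52 and 1.62 without, a change of 0.10 with overlapping groups. The mean over both probes gave 0.40 (adjusted p = 0.382). Over the 12 distinct alternatives the change of Tpr ran from 0.40 to 0.74 and its adjusted p from 0.0230 to 1, and it passed in 3: with trend and robust variances (0.0230), without control 1 (0.0424) and without control 2 (0.0487). Nup50, a basket protein that helps release import cargo, had a change of −0.37. Nup153, known in ES cells for its binding to developmental genes, read 2.59 and 3.27 against 2.58 and 2.69 (change −0.30, adjusted p = 0.615). Its 3 probes agreed at −0.30, −0.40 and −0.32, but control 2 alone stood high, and without control 2 the change was 0.04.

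**Figure D3:**
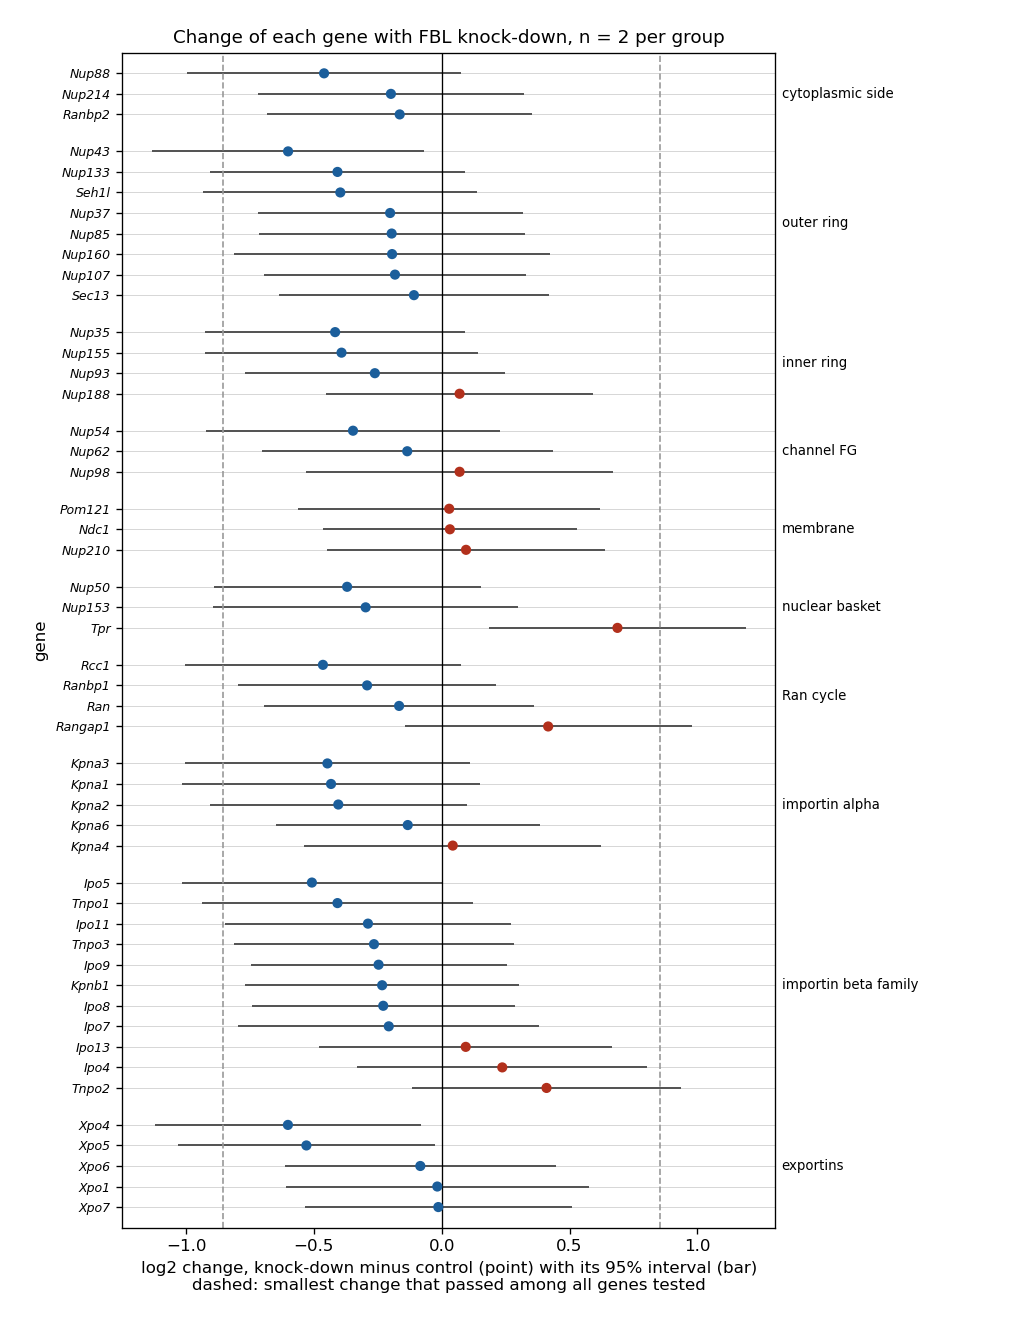
Log2 change of each gene, knock-down minus control, with its 95% interval from limma, grouped by role; blue points are below 0 and red points above, and the dashed lines mark 0.86, the smallest change that passed among all genes. Every point lies inside the dashed lines, and the intervals of Tpr, Nup43, Xpo4 and Xpo5 leave out 0 before adjustment for the number of genes tested.

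The Ran cycle went both ways. Ran itself read 8.97 and 8.61 with Tc and 8.59 and 8.66 without, a change of −0.17 ± 0.24 (limma adjusted p = 0.767) with overlapping groups. Rcc1, the exchange factor, read 3.21 and 2.79 against 2.59 and 2.48 (change −0.46, adjusted p = 0.327), both knock-down values below both controls. Ranbp1, which helps Rangap1 act on Ran, read 5.88 and 5.73 against 5.54 and 5.49 (change −0.29, adjusted p = 0.542). Rangap1 differed in sign from these. It read 5.35 and 4.83 with Tc and 5.57 and 5.45 without, a change of 0.42 ± 0.25 (adjusted p = 0.410), and its other probe read 1.39 and 0.83 against 1.60 and 1.77, a change of 0.58. The knock-down values lay above both controls at either probe, by a narrow margin over control 1. Without control 1 the change of Rangap1 was 0.68 (adjusted p = 0.0412) and without control 2 it was 0.15.

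Of the 5 importin alpha genes, the adaptors that recognise the classical nuclear localisation signal, 4 were lower and the median was −0.40. Kpna2 read 6.54 and 6.65 with Tc and 6.25 and 6.14 without, a change of −0.40 ± 0.23 (limma adjusted p = 0.366). Its other probe gave −0.44, and at neither probe did the groups overlap. Kpna1 had a change of −0.43 and Kpna6 one of −0.13. The probes of Kpna3 did not share a change, at −0.45, −0.02 and 0.01. Those of Kpna4 lay further apart, at 0.04, −0.73 and −0.32. At the second probe of Kpna4 the controls read −1.69 and −1.48 and the knock-down samples −2.33 and −2.29, so that its groups lay apart there and overlapped at the brightest probe.

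Of 11 genes of the importin beta family 8 were lower, with a median of −0.23. Ipo5, an importer of ribosomal proteins and histones, read 3.57 and 3.75 with Tc and 3.22 and 3.09 without, a change of −0.51 ± 0.23 (limma adjusted p = 0.250). Its other probe gave −0.19, with overlapping groups. Kpnb1, importin beta itself and the partner of the importin alpha adaptors, read 3.77 and 4.19 against 3.71 and 3.78 (change −0.23, adjusted p = 0.673). The groups of Kpnb1 met at control 1. Tnpo1, the importer of many RNA-binding proteins, had a change of −0.41, while its close relative Tnpo2 read 1.86 and 1.51 against 2.16 and 2.03, a change of 0.41 (adjusted p = 0.385). The difference between these 2 genes was not tested, and the other Tnpo2 probe gave 0.10. Ipo4, an importer of histones and ribosomal proteins, read 4.74 and 4.18 against 4.68 and 4.72 (change 0.24, adjusted p = 0.686), with knock-down values between the controls.

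All 5 exportins were below 0, from −0.60 to −0.01, where 55.8% of all genes were. Xpo4, an exporter of eIF5A, read −2.28 and −2.02 with Tc and −2.82 and −2.67 without, a change of −0.60 ± 0.23, or 1.52-fold (limma adjusted p = 0.176). Its groups lay apart, but under normexp background correction the change was −0.14. Xpo5, the exporter of microRNA precursors, read 2.87 and 2.93 against 2.43 and 2.32, a change of −0.53 ± 0.23 (adjusted p = 0.220). Its other probe read −3.82 and −4.01 against −4.45 and −4.36, a change of −0.49, so that at either probe both knock-down arrays stood below both controls. Xpo1, the exportin of ribosomal subunits, read 1.93 and 2.57 with Tc and 2.14 and 2.33 without. The knock-down values lay between the controls, and the change was −0.02 ± 0.27 with a 95% interval from −0.61 to 0.58 (adjusted p = 0.983). Xpo6 (−0.08) and Xpo7 (−0.01) had overlapping groups as well. Leaving out a control turned the sign of Xpo6 (0.10 without control 1), Xpo1 (0.31 without control 2) and Xpo7 (0.15 without control 2). Xpo4 and Xpo5 stayed below 0 without either control.

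**Figure D4:**
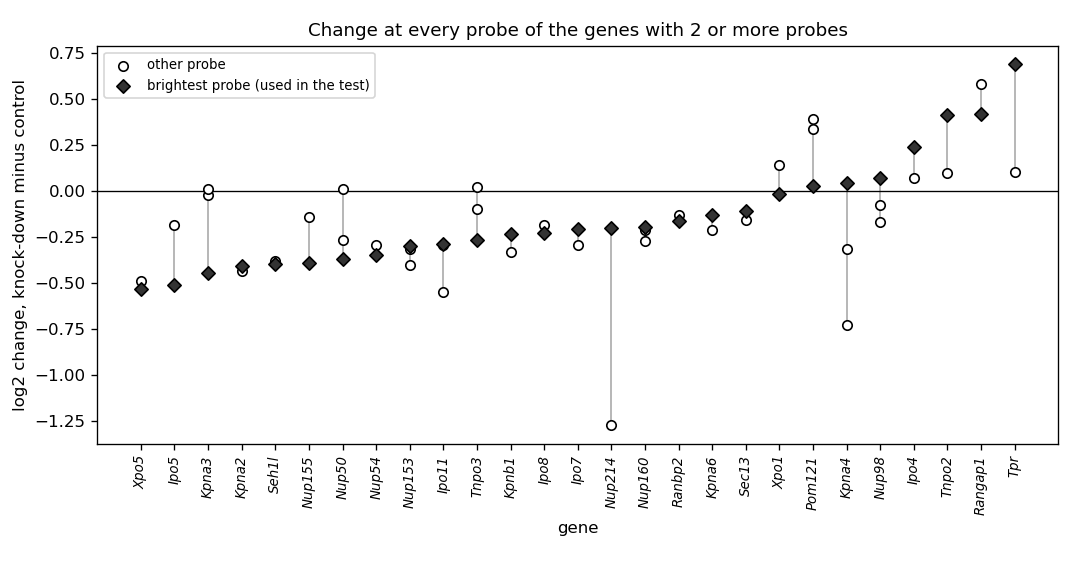
Log2 change at every probe of the 27 genes with 2 or more probes, ordered by the change at the brightest probe (filled diamond), with the other probes as open circles. The probes of Kpna2, Seh1l and Xpo5 nearly coincide, and those of Tpr, Kpna4 and Nup214 lie more than 0.5 apart.

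How far probes of a gene agreed set a limit to these readings. Of 27 genes with 2 or more probes, 21 had all probes on one side of 0, and 6 had probes on both sides (Xpo1, Nup98, Tnpo3, Nup50, Kpna3 and Kpna4). The median spread between the probes of a gene was 0.16, and 3 genes exceeded 0.5. The largest spread was that of Nup214, whose second probe read 0.24 in control 1, −4.94 in control 2, and −3.60 and −3.63 in the knock-down samples. Both knock-down values of that probe lay between its controls, and its change was −1.27, beside −0.20 at the brightest probe. Of all 85 probes 64 had a change below 0.

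The controls bore on many of the directions. For 29 of the 49 genes (59.2%, with 58.0% of all genes) the controls differed from each other by more than the size of the change. Control 2 was the higher control for 28 genes (57.1%, with 37.9% of all genes), among them Nup160 (by 0.74), Nup153 (0.68), Nup98 (0.67) and Xpo1 (0.65), and the lower for the others, among them Ipo13 (control 2 minus control 1, −0.59), Pom121 (−0.57) and Nup62 (−0.57). Against either control alone, 29 genes were lower, 4 were higher (Tpr, Rangap1, Tnpo2 and Ndc1) and 16 changed sign. For 36 genes, leaving out one control or the other turned the sign or moved the change by over 1.5 times. These counts against single controls were not made over all genes, so they do not set the list apart. Kpnb1 was −0.44 without control 1 and −0.025 without control 2, Nup107 −0.29 and −0.074, and Nup54 −0.64 and −0.050. Without control 1, 2 genes rose (Tpr 0.67 and Rangap1 0.68) and 5 fell (Xpo4 −0.73, Kpna1 −0.73, Kpna3 −0.70, Nup54 −0.64 and Nup153 −0.64), where 20.6% of all genes passed. Without control 2, Tpr alone passed (0.71), where 12.0% of all genes did. In either case the knock-down pair alone supplied the replicate error. Without knock-down 1, and without knock-down 2 (the comparison within slide 1), 0 of the 49 genes passed in limma and 0 had an unadjusted p under 0.05, where 4.08% and 2.999% of all genes passed. There the controls, the less alike pair, supplied the replicate error.

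**Figure D5:**
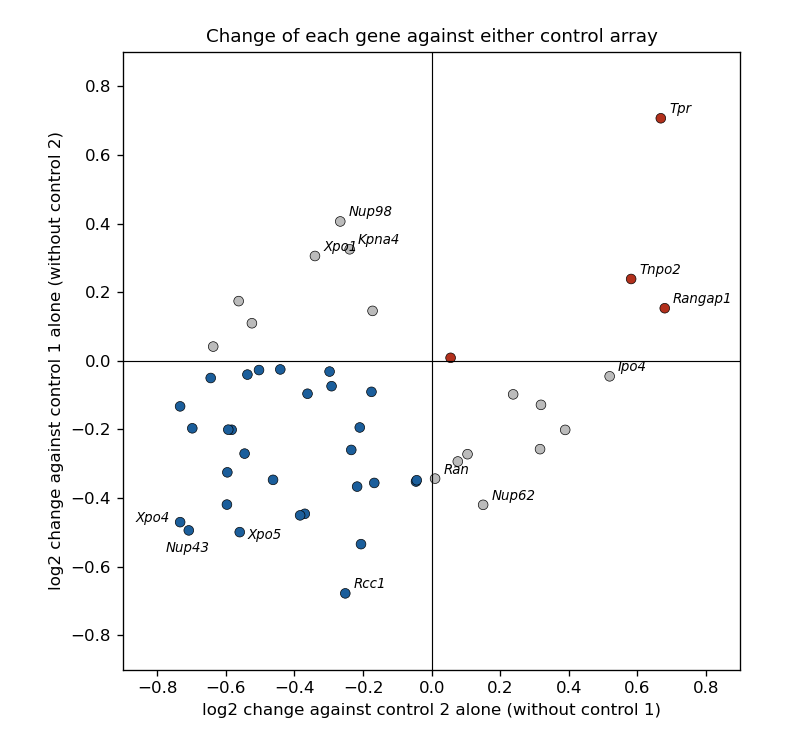
Log2 change of each of the 49 genes with control 1 left out (horizontal) and with control 2 left out (vertical); blue genes are below 0 in both, red genes above 0 in both and grey genes differ in sign. Tpr lies at 0.67 and 0.71, Rangap1 at 0.68 and 0.15, and Xpo1 and Nup98 change sign.

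Other genes of nuclear transport, listed by function and outside the rule, gave 1 gene that rose and 0 that fell among 32 tested in limma. Over all genes 4.05% rose and 2.74% fell. Thoc6, a subunit of the THO complex that couples transcription to mRNA export, read 4.59 and 4.07 with Tc and 5.59 and 5.71 without. It rose by 1.32 ± 0.25, or 2.50-fold (adjusted p = 0.0103). It no longer passed without knock-down 2, which leaves slide 1 only (1.26, adjusted p = 0.136), without knock-down 1 (1.38, adjusted p = 0.0547) or with no filter on dim probes (adjusted p = 0.259). The median of these 32 genes was −0.18, against −0.06 over all genes, and 22 were lower (68.75%, with 55.8% of all genes). Beside Thoc6, Ranbp3, a cofactor of Xpo1, had a change of 0.85 (adjusted p = 0.0868), Mcm3ap, the scaffold of the TREX-2 mRNA export complex, 0.80 (0.0639) and the THO subunit Thoc2 0.66 (0.136). The other THO subunits tested lay near 0, with Thoc1 at 0.10, Thoc3 at 0.007 and Thoc5 at −0.087. Of the mRNA export genes Nxf1 and Alyref, the changes were −0.48 and −0.02. Among the lower values were those of the cap-binding genes Ncbp2 (−0.66, adjusted p = 0.132) and Ncbp1 (−0.49, adjusted p = 0.270), and of Phax (−0.48, adjusted p = 0.289), the adaptor for export of small nuclear RNAs. Nmd3, the adaptor between the large ribosomal subunit and Xpo1, had a change of −0.34 (adjusted p = 0.498) with groups that did not overlap, and Cse1l, which returns importin alpha to the cytoplasm, one of −0.16 (adjusted p = 0.799). These genes beside Thoc6 were chosen for mention after their values were seen.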

How the data were processed

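Total RNA of 4 ES cell samples was labelled with Cy3, 1 array per sample. Per the file headers, Agilent Feature Extraction 10.7.3.1 read the scans and gave the deposited spot intensity, background-subtracted and unscaled. The values used are the authors' deposited log2 table. Per array, 99.9% of them differed by at most 0.01 from log2 intensity less a constant, with 75th percentiles at 0, column medians of −3.85, −3.98, −3.94 and −3.91 (controls 1 and 2, knock-down samples 1 and 2) and no centring of probes, in the direction of the signal. What software made that table is not stated in the labels or headers.

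Probes were named by accession through the RefSeq table of GRCm38.p6, which named 24375 of 41174 probes. No coordinates of probes are given, since the array design refers to another build. Left out were 50 probes that had only flagged spots on some array. Tested probes were well above background in each sample of 1 or both groups, and the brightest probe stood for a gene. An accession with no symbol counted as a gene of its own. Groups were compared in limma 3.58.1 (R 4.3.3, two-sided, Benjamini-Hochberg), tested on simulated data. Alternatives changed the background correction, the normalization, the filter, the probe rule, the variance model, the block and the arrays included. Named genes are Fbl, the 5 highest and 5 lowest changes, 14 genes fixed by name and listed transport genes that passed; others named were chosen after their values were seen. The genes and lists were chosen with earlier results of these data known.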

Additional observations from a re-analysis of the deposited data

How the results depend on the processing

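The slide as a block and leaving out knock-down 2 are the same fit, counted once. Across the 12 distinct alternatives, 241 of 264 changes of the 22 named genes kept their direction and their side of the threshold, 4 lost and 6 gained a call, and 13 turned sign. No pore or transport gene of the 49 passed in any alternative other than those with trend and robust (1 rose), without control 1 and without control 2. Over all genes the test gave 784 higher and 529 lower; quantile normalization gave 339 lower, trend and robust 1222 and 1032, the slide as a block 385 and 195, and no filter on dim probes 0 and 0, Fbl included (adjusted p = 0.104, limma), with 1 of the 49 genes at an unadjusted p under 0.05. With 1 array left out at a time, 385 to 2304 genes rose, 195 to 1684 fell, 0 to 2 of the 49 genes rose, 0 to 5 fell, and their median was −0.27 to −0.20.

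Nup153 passed without control 1, and the other genes that turned sign passed in no alternative; the cause was not tested. Ipo4 was −0.029 under normexp, Xpo1 0.021 with quantile normalization and 0.060 with the mean over probes, and Nup98 −0.059 with the mean over probes and −0.020 with the slide as a block. With 1 array left out at a time, Ipo4 ran from −0.045 (without control 2) to 0.52, Xpo1 from −0.34 to 0.31 (without control 2), Nup98 from −0.27 (without control 1) to 0.41, Nup62 from −0.42 to 0.15 (without control 1), Ran from −0.34 to 0.010 (without control 1), Nup153 from −0.64 to 0.042 (without control 2) and Nup210 from −0.13 (without control 2) to 0.32.

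Same-numbered samples did not deviate together (correlation of deviations 0.0026), so the numbers do not pair them; with the replicate block 976 genes rose and 786 fell, 0 of the 49 passed, and their median was −0.21. Normexp was run on median signals, chosen after seeing that the files hold no mean spot signal, so normexp on mean signals was not run.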
